A study of Mus musculus with 9 samples.

Results

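The 6 genes that a dopamine neuron uses to make, package, take back and sense its transmitter, or that mark its vesicles, were followed in the adult midbrain of mice with 0, 1 or 2 floxed Dot1l alleles. They are Th, Ddc, Slc18a2, Slc6a3, Drd2 and Slc10a4. The genes were found by their Ensembl identifiers, which match these 6 symbols among the 47729 identifiers of each count file, and all 6 were among the 17671 genes with enough counts to be tested. The material was dissected midbrain of mice at postnatal day 180. Every mouse carried Pitx3-Cre/+ and Rosa-lox-stop-lox-Yfp on a C57/Bl6 background, also the controls. Controls were Dot1l(+/+), and the mutant genotypes were Dot1l(fl/+), with 1 floxed allele, and Dot1l(fl/fl), with 2. There were 3 libraries of each genotype, and each library was made from the pooled tissue of several mice.

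Some features of the material limit what the values can show. Cre was expressed from the Pitx3 locus, so recombination is expected in dopamine neurons of the midbrain, while the dissected tissue also holds neurons and glia without Cre. In such bulk tissue, fewer dopamine neurons and less RNA per dopamine neuron cannot be told apart. The labels call the source dopamine neurons, and the description of the series speaks of sorted embryonic cells, whereas the label of each library gives a dissection at day 180. Markers of other cells were present in every pool. The summed level of 6 oligodendrocyte genes lay between 10050 and 11520 CPM (counts per 1000000 counts of the library, scaled by TMM factors), and that of 5 genes of GABA neurons between 969 and 1108 CPM. The study's methods say that the pools were composed of matched littermate sets, but no label ties a pool number to such a set.

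In a dopamine neuron, tyrosine hydroxylase (Th) turns tyrosine into L-DOPA, the rate-limiting step, and aromatic L-amino acid decarboxylase (Ddc) turns L-DOPA into dopamine. The vesicular monoamine transporter VMAT2 (Slc18a2) loads dopamine into synaptic vesicles, and the plasma membrane dopamine transporter DAT (Slc6a3) takes released dopamine back up. The D2 receptor (Drd2) acts in these neurons as an autoreceptor that restrains firing and release. Slc10a4 is an orphan carrier of the bile acid transporter family found on synaptic vesicles of monoamine and cholinergic neurons. Th and Slc6a3 mark dopamine neurons within the midbrain, whereas Ddc and Slc18a2 also serve serotonin neurons.

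The members lie on 6 different chromosomes (GRCm38, GENCODE M21). Th (ENSMUSG00000000214) lies at chr7:142892752-142931128 on the minus strand and Ddc (ENSMUSG00000020182) at chr11:11814101-11898144 on the minus strand. Slc18a2 (ENSMUSG00000025094) lies at chr19:59260896-59296012 and Slc6a3 (ENSMUSG00000021609) at chr13:73536747-73578672, both on the plus strand. Drd2 (ENSMUSG00000032259) lies at chr9:49340627-49408177 and Slc10a4 (ENSMUSG00000029219) at chr5:73006883-73012955, also on the plus strand. The only counted gene that shares exon bases with a member is Gm29261, antisense to Slc18a2 over 111 bases, and it had 0 counts in every library.

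The sequences just before the start sites of Slc6a3, Slc18a2 and Th are printed because these genes differed most clearly between Dot1l(fl/fl) and controls. Each run is the 250 bases that end 1 base before the RefSeq start (GRCm38.p6), read in the direction of the gene. Capitals mark the cAMP response element TGACGTCA and the GC box GGGCGG on either strand. The windows are chr13:73536497-73536746 (plus strand) for Slc6a3, chr19:59260628-59260877 (plus strand) for Slc18a2 and chr7:142899996-142900245 (minus strand) for Th. The Th window lies inside the GENCODE span given above, because RefSeq starts Th at 142899995 and GENCODE at 142931128.
Slc6a3: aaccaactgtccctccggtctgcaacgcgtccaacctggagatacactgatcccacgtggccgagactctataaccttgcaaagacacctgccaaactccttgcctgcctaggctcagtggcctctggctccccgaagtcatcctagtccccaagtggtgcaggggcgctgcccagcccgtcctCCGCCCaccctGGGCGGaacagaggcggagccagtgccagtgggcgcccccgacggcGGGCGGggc
Slc18a2: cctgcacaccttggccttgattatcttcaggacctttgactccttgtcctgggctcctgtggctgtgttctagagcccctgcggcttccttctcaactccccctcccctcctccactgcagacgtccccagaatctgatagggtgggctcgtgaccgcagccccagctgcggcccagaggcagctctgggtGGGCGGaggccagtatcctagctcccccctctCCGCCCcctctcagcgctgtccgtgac
Th: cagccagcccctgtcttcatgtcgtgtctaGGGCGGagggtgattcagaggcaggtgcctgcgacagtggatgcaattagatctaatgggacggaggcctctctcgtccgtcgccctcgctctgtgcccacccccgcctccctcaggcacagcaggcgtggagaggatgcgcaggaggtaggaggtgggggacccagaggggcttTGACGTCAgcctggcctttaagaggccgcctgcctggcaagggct
In Slc18a2 the element TGACGTCA spans the RefSeq start, from position -4 to 4, so the window above holds only its first letters. The 30 bases around it (chr19:59260874-59260881 for the element itself) are therefore printed apart.
Slc18a2 around the start: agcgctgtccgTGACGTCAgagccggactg

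The 6 letter patterns below, chosen after the sequences had been seen, were counted on both strands in the 300 bases from 250 before to 50 after each start. TGACGTCA was found in Th and Slc18a2, 2 of the 6 members, and in 1.79% of the 32851 RefSeq promoters. In Th it lies at positions -45 to -38. GGGCGG was found in 5 of 6 members and in 35.7% of all promoters. Slc6a3 holds 3 copies, and Ddc has none at either of its annotated starts. Ddc instead holds AAAGGTCA, the element known for Nurr1, at positions -73 to -66 of its upstream start, overlapped by TATAAA at -68 to -63. These 2 patterns were found in 1.51% and 13.6% of all promoters. The E box CACGTG was found in Slc6a3 alone of the members and in 7.15% of promoters, and TAATCC in no member and in 7.06%. These matches describe the letters and do not show binding.

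Levels were compared between genes per kilobase of exon. In the controls Slc6a3 was highest at 44.4 ± 3.14 CPM per kilobase (SD, n = 3), followed by Th at 31.8 ± 4.36, Ddc at 17.3 ± 0.994, Slc18a2 at 16.3 ± 0.609, Slc10a4 at 7.18 ± 0.816 and Drd2 at 5.01 ± 0.601. Every neighbouring pair in this order was apart in the controls, with all pools of the higher gene above those of the lower, except Ddc and Slc18a2, whose pools overlapped. The order was the same in Dot1l(fl/+) and Dot1l(fl/fl), and within each of the 9 pools. In Dot1l(fl/fl) all neighbours were apart, with Slc6a3 at 27.8 ± 1.22 and Drd2 at 4.47 ± 0.236 CPM per kilobase at the ends of the order.

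The libraries held 16422135 to 28403218 counts, so a member rested on 195 to 3916 counts in a pool. Pools of a genotype differed beyond counting noise, with a chi-square per degree of freedom of 4.34 to 16.3, so none repeats another. Dot1l, the targeted gene, gave 85.2, 80.2 and 85.1 CPM in the control pools, 84.2, 60.6 and 75.6 with 1 floxed allele and 82.1, 73.9 and 82.9 with 2. The genotypes overlapped. Counts over the whole gene in mixed tissue do not check the deletion of a floxed exon in Cre cells. Serotonin markers varied among pools of every genotype (Tph2 from 1.11 to 8.16 CPM). All 5 noradrenaline markers were below the filter on low counts, with a summed level of 0.0763 to 0.378 CPM and Slc6a2 at 0 in every pool. Hypothalamic markers stood apart in 2 pools, Dot1l(fl/+) 1 and 3. There the 7 genes summed to 124.8 and 58.2 CPM, against 1.68 to 9.55 in the other 7 pools. Pmch led with 99.4 and 49.6 CPM.

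The comparison of Dot1l(fl/fl) with Dot1l(+/+) asked whether loss of both alleles alters the dopamine genes at 6 months. Slc6a3, Slc18a2 and Th were at 62.5%, 62.5% and 61.2% of the control mean. Ddc was at 76.6%, Slc10a4 at 79.8% and Drd2 at 89.3%. All 3 Dot1l(fl/fl) pools lay below all 3 control pools for 5 of the 6 members, against 5.25% of all genes tested in that direction. The quasi-likelihood test of edgeR, adjusted over 17671 genes by Benjamini-Hochberg, called none of the 6 (0.0% of all genes were called), while 5 had an unadjusted p under 0.05 and were lower, against 1.72% of all genes. DESeq2 on the same 9 libraries called Slc6a3, Slc18a2 and Th lower, and these were all the genes it called in that direction among 28310 (0.0106%). It called no gene higher.

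**Figure D1:**
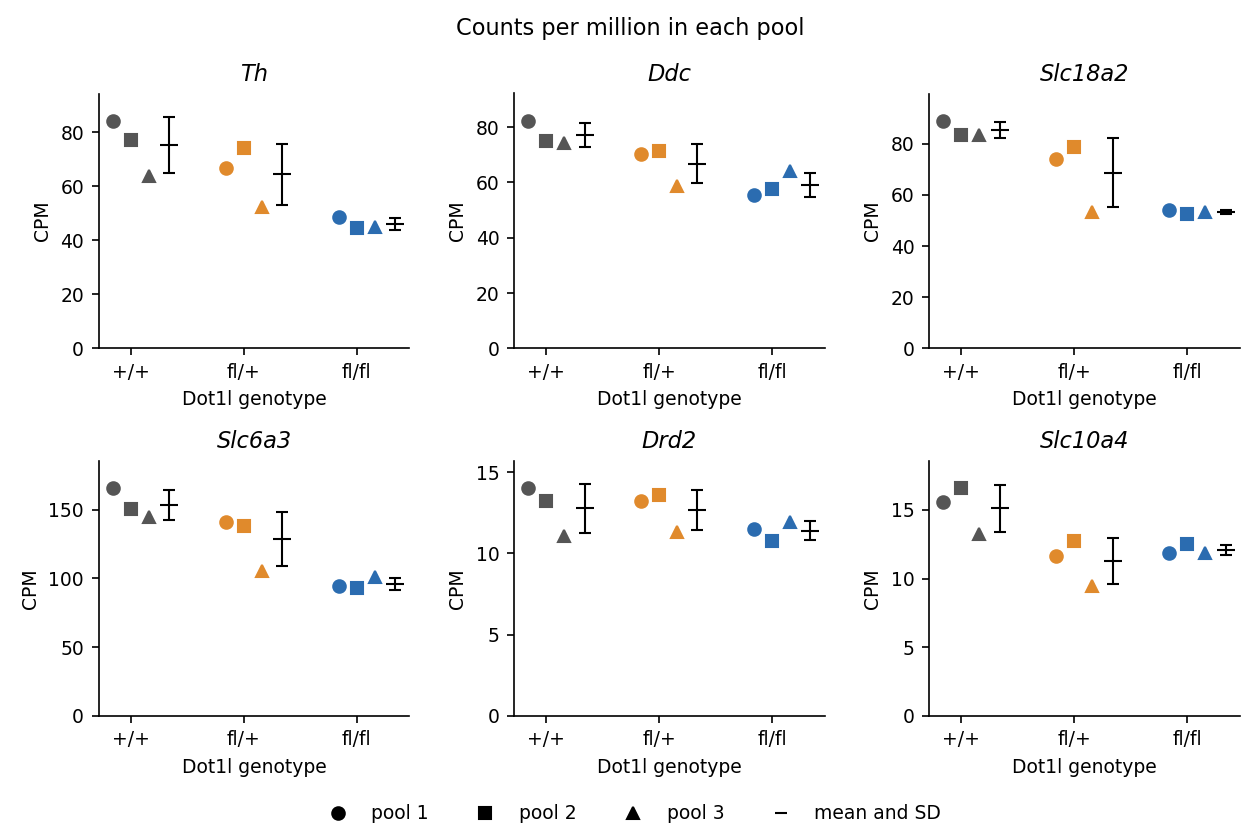
CPM of the 6 members (vertical axes, from 0) in each pool of the 3 genotypes, with the mean and SD of the 3 pools beside them. The Dot1l(fl/fl) pools lie below every control pool for all members but Drd2, and pool 3 of Dot1l(fl/+) is the lowest of its genotype in all panels.

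Of the synthesis enzymes, Th gave 84.3, 77.4 and 64.0 CPM in the control pools, 66.8, 74.4 and 52.3 with 1 floxed allele and 48.7, 44.5 and 45.0 with 2. The lowest control pool was above the highest Dot1l(fl/fl) pool, and the Dot1l(fl/+) pools overlapped with the controls only. The log2 fold change of Dot1l(fl/fl) against controls was -0.71 ± 0.12 (SE, 95% interval -0.96 to -0.45), with an edgeR adjusted p of 0.248 and a DESeq2 adjusted p of 1.69e-05.

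Ddc gave 82.3, 74.8 and 74.4 CPM in controls, 70.4, 71.3 and 58.8 with 1 floxed allele and 55.6, 57.7 and 64.0 with 2. Its Dot1l(fl/fl) pools were below the controls and overlapped with Dot1l(fl/+). The log2 fold change of Ddc against controls was -0.39 ± 0.08, with an edgeR adjusted p of 0.970 and a DESeq2 adjusted p of 0.0619.

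For storage, Slc18a2 gave 89.0, 83.6 and 83.3 CPM in controls, 74.0, 78.7 and 53.5 with 1 floxed allele and 54.2, 52.5 and 53.3 with 2. It had the smallest spread within Dot1l(fl/fl) of all members, with a coefficient of variation of 1.60%. The log2 fold change against controls was -0.68 ± 0.11 (-0.91 to -0.45), and the adjusted p was 0.197 by edgeR and 5.58e-06 by DESeq2. Slc10a4, the other vesicle carrier, gave 15.6, 16.6 and 13.2 CPM in controls, 11.7, 12.7 and 9.46 with 1 floxed allele and 11.9, 12.5 and 11.8 with 2. Here both mutant genotypes lay below the controls and overlapped with each other. Against controls Dot1l(fl/fl) was at -0.32 ± 0.12 on the log2 scale, with an edgeR adjusted p of 0.999.

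For reuptake, Slc6a3 gave 165.6, 150.5 and 144.5 CPM in controls, 141.2, 138.4 and 105.7 with 1 floxed allele and 94.3, 92.9 and 100.8 with 2. The 3 genotypes did not overlap at any point for this gene. With a log2 fold change of -0.68 ± 0.09 (-0.88 to -0.48) in Dot1l(fl/fl), it had the lowest adjusted p of all genes tested, 0.0906 by edgeR, and 3.42e-08 by DESeq2. The autoreceptor gene Drd2 gave 14.0, 13.2 and 11.1 CPM in controls, 13.2, 13.6 and 11.3 with 1 floxed allele and 11.5, 10.8 and 11.9 with 2. All 3 genotypes overlapped for Drd2. Its log2 fold change in Dot1l(fl/fl) was -0.16 with a 95% interval of -0.41 to 0.09, so a decrease as large as that of Slc6a3 lies outside the interval. It was -0.26 without control pool 3 and -0.09 without control pool 1.

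By p-value the members Slc6a3, Slc18a2, Th and Ddc held ranks 1, 2, 3 and 5 among 17671 genes in this comparison, Slc10a4 held rank 257 and Drd2 rank 2772. By size, Th, Slc6a3 and Slc18a2 held ranks 8, 11 and 12 from the most negative log2 fold change among 13167 genes with a mean of at least 80 normalized counts. The median log2 fold change was -0.53 over the 6 members and 0.00090 over all genes tested. The edgeR calls differed between fits to different sets of libraries. Slc6a3, Slc18a2 and Th were called, with adjusted p-values of 3.29e-04, 1.53e-04 and 0.0147, when Dot1l(+/+) and Dot1l(fl/fl) were fitted alone, where 0.0231% of all genes were called. They were also called when Dot1l(fl/+) pool 2 or pool 3 was left out, with 0.0224% of all genes called in each. Their log2 fold changes lay between -0.81 and -0.62 whichever library was left out. Over all alternatives the adjusted p of Slc6a3 ran from 2.17e-23 in edgeR with no filter to 0.915 in edgeR without Dot1l(fl/fl) pool 2, and those of Slc18a2 and Th also reached 1.0.

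**Figure D2:**
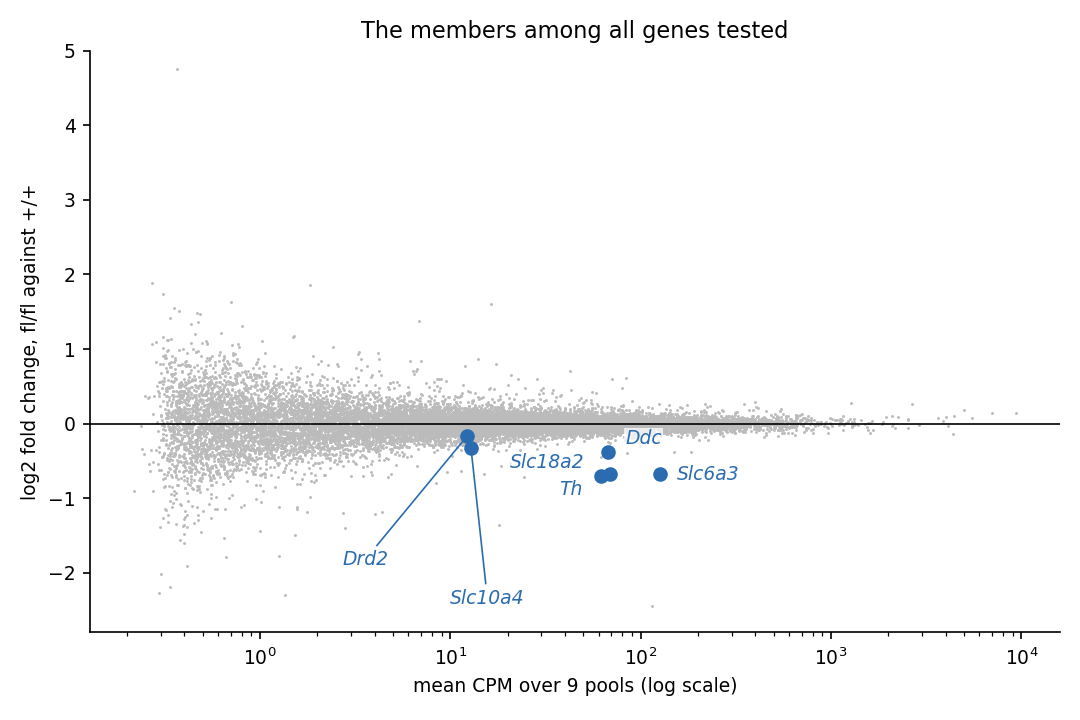
Log2 fold change of Dot1l(fl/fl) against Dot1l(+/+) (vertical axis) by mean CPM over the 9 pools (horizontal axis, log scale) for the genes tested, in grey, with the 6 members in blue. Th, Slc18a2 and Slc6a3 lie near -0.7, and of 3838 other genes with a mean CPM of 50 to 200 only 1 (Ttr, named after its value was seen) lies lower.

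The comparison of Dot1l(fl/+) with Dot1l(+/+) concerned mice that kept 1 intact allele. The 6 members had log2 fold changes of -0.42 to -0.0047, with a median of -0.24 against -0.0034 over all genes tested. Slc10a4 had the largest, -0.42 ± 0.12 (95% interval -0.68 to -0.16), followed by Slc18a2 at -0.31 ± 0.10, Slc6a3 at -0.26 ± 0.09, Th at -0.22 ± 0.12, Ddc at -0.21 ± 0.08 and Drd2 at -0.0047 ± 0.11. All pools were below the controls for 4 members, Slc10a4, Slc18a2, Slc6a3 and Ddc, against 6.47% of all genes. The same 4 had an unadjusted p under 0.05, against 4.09% of all genes in that direction. No member passed the adjusted threshold in edgeR, where the adjusted p-values ran from 0.541 to 0.995 and 0.0% of all genes were called. DESeq2 on all 9 libraries called no member either, and 0.00687% of genes lower.

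Pool 3 of Dot1l(fl/+) was the lowest of its genotype for 6 of 6 members. Without it the log2 fold changes were smaller, -0.13 for Slc6a3, -0.16 for Slc18a2, -0.09 for Th, -0.12 for Ddc and -0.31 for Slc10a4. Without pool 2 they were larger, -0.34 for Th, -0.42 for Slc18a2, -0.31 for Slc6a3, -0.26 for Ddc and -0.52 for Slc10a4. Pool 3 is also 1 of the 2 pools with hypothalamic markers and had the lowest Tph2, at 1.11 CPM. Pool 1, with more Pmch, was not the lowest for any member. With pools 1 and 3 both left out, so that pool 2 stood alone for its genotype, Th was at -0.01, Slc6a3 at -0.15, Slc18a2 at -0.12, Ddc at -0.11, Slc10a4 at -0.25 and Drd2 at 0.09. The part of the dissection in these differences was not tested. Markers of some other cells also differed in Dot1l(fl/+), none of them called by edgeR. All 5 cholinergic genes were higher there than in controls (median 0.35 on the log2 scale), and their sum was 8.62 to 10.7 CPM against 7.17 to 8.56. Of these, Isl1 alone had an unadjusted p under 0.05, and Chat, the defining enzyme, was at 0.02 ± 0.37. Of 6 oligodendrocyte genes 4 were higher, Cnp (0.17 ± 0.06) and Mog (0.16 ± 0.06) with an unadjusted p under 0.05, while their sums overlapped. Of 6 astrocyte genes 3 were higher and 3 lower, and Aldh1l1 alone (0.13 ± 0.06) had an unadjusted p under 0.05. The part of these cells in the values of the members was not tested. In the controls, too, 1 pool (pool 3) was the lowest for all 6 members, whereas in Dot1l(fl/fl) pool 2 was the lowest for 4 members and pools 1 and 3 for 1 each.

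Between Dot1l(fl/fl) and Dot1l(fl/+), Slc6a3 and Th had all Dot1l(fl/fl) pools below all Dot1l(fl/+) pools, 2 of 6 members against 5.14% of all genes. The log2 fold changes were -0.48 ± 0.12 for Th, -0.42 ± 0.09 for Slc6a3, -0.37 ± 0.11 for Slc18a2, -0.18 ± 0.08 for Ddc, -0.16 ± 0.11 for Drd2 and 0.10 ± 0.12 for Slc10a4. For the first 4 of these the unadjusted p was under 0.05, against 2.87% of all genes in that direction. The edgeR test called no member and 0.0% of all genes, with adjusted p-values of 0.535 for Slc6a3 and 0.549 for Th. DESeq2 on all 9 libraries called Slc6a3 alone of the members, at an adjusted p of 0.0285, while 0.0353% of genes were called lower. Without Dot1l(fl/+) pool 3, edgeR called Slc6a3 and Slc18a2 (0.0224% of all genes were called), and 5 of 6 members had all Dot1l(fl/fl) pools below the other 2, against 8.47% of all genes. Slc10a4 was then at -0.01. Markers of other cells were also lower in Dot1l(fl/fl) than in Dot1l(fl/+) with an unadjusted p under 0.05, none of them called by edgeR. They were all 3 tested hypothalamic genes, Pmch at -5.57 ± 1.27, Trh at -2.43 ± 0.61 and Pomc at -0.97 ± 0.33, whose list of 7 genes summed to 2.41 to 3.94 CPM against 2.86 to 124.8. Of 6 oligodendrocyte genes, Cnp (-0.19 ± 0.06), Mag (-0.15 ± 0.06) and Mbp (-0.14 ± 0.06) were lower, and the sums overlapped. The part of these cells in the values of the members was not tested.

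**Figure D3:**
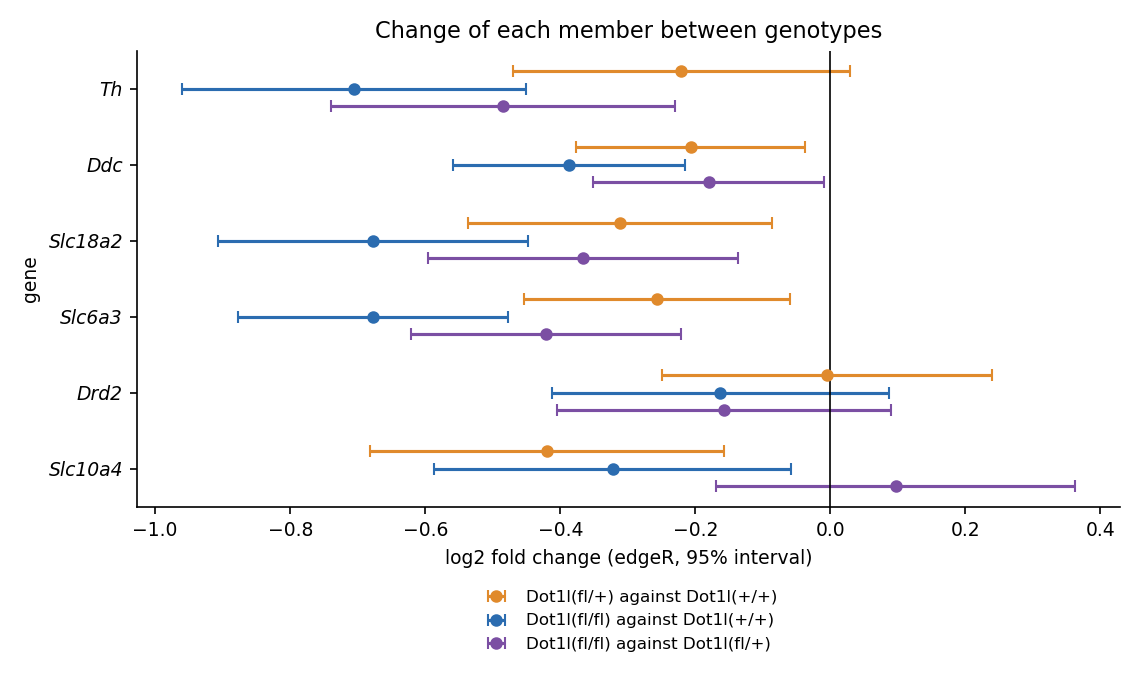
Log2 fold change of each member (horizontal axis) with its 95% interval from edgeR in the 3 comparisons. The intervals of Th, Ddc, Slc18a2, Slc6a3 and Slc10a4 lie below 0 in the comparison of Dot1l(fl/fl) with controls, and those of Drd2 cross 0 in all comparisons.

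Whether the second allele added as much as the first was tested as the difference between both steps on the log2 scale, with a negative value where the step from Dot1l(fl/+) to Dot1l(fl/fl) was the more negative. The difference was -0.26 ± 0.20 for Th, -0.16 ± 0.16 for Slc6a3, -0.15 ± 0.20 for Drd2, -0.05 ± 0.18 for Slc18a2, 0.03 ± 0.14 for Ddc and 0.52 ± 0.21 for Slc10a4. Only Slc10a4 had an unadjusted p under 0.05 (8.96% of all genes did, in either direction), and its edgeR adjusted p was 0.534. No member was called by edgeR or by DESeq2, with 0.0% of all genes called by edgeR. For the other 5 members the intervals are wide, from -0.70 to 0.17 for Th, and hold both an equal and an unequal second step. These differences varied with the Dot1l(fl/+) pools in the fit. Slc10a4 was at 0.29 without pool 3 (edgeR adjusted p 0.864), at 0.71 without pool 2 and at 0.17 without pools 1 and 3. Th was at -0.52 without pool 3 and at -0.03 without pool 2, and Slc6a3 at -0.41 without pool 3 and at -0.02 without pool 1.

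The 15 ratios between 2 members within a pool compare the genes without regard to the size of the library, and any factor common to both genes of a ratio cancels. With 3 pools a genotype the smallest exact two-sided permutation p is 0.1, so these ratios cannot pass 0.05. The ratios share genes and are not independent. Between Dot1l(fl/fl) and controls 9 of 15 ratios did not overlap, against 10.4% of all gene pairs with a mean of at least 80 normalized counts. The count was 6 of 15 between Dot1l(fl/+) and controls, against 13.5% of all pairs, and 10 of 15 between Dot1l(fl/fl) and Dot1l(fl/+), against 11.0%.

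The ratio of both transporters overlapped between all genotypes. Slc6a3/Slc18a2 was 1.86, 1.80 and 1.73 in the control pools, 1.91, 1.76 and 1.98 with 1 floxed allele and 1.74, 1.77 and 1.89 with 2. The log2 difference between Dot1l(fl/fl) and controls was 0.0014 ± 0.047 (SE), the smallest of all 15. The ratios of Th to the transporters also overlapped with the controls. The log2 difference between Dot1l(fl/fl) and controls was -0.02 ± 0.09 for Th/Slc6a3 and -0.02 ± 0.10 for Th/Slc18a2, with exact p-values of 1.0 and 0.9. Against Dot1l(fl/+), however, all Dot1l(fl/fl) pools were lower for Th/Slc18a2, by a log2 difference of -0.13 ± 0.04 (exact permutation p = 0.1), while those for Th/Slc6a3 overlapped.

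Against the autoreceptor gene these 3 were lower in each mutant genotype. Th/Drd2 was 6.02, 5.85 and 5.80 in controls, 5.06, 5.48 and 4.63 with 1 floxed allele and 4.24, 4.14 and 3.77 with 2, with no overlap between any of the genotypes. The log2 difference between Dot1l(fl/fl) and controls was -0.54 ± 0.05 (exact permutation p = 0.1, the smallest possible). Slc6a3/Drd2 was 11.8, 11.4 and 13.1 in controls, 10.7, 10.2 and 9.36 with 1 floxed allele and 8.22, 8.64 and 8.44 with 2, again with no overlap, and the log2 difference was -0.52 ± 0.06. For Slc18a2/Drd2 the difference was -0.52 ± 0.09, and its Dot1l(fl/fl) pools overlapped with Dot1l(fl/+). The part of cells other than dopamine neurons in the Drd2 counts, and so in these ratios, was not tested.

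The ratios of Ddc to both transporters were above the controls in every Dot1l(fl/fl) pool. Ddc/Slc6a3 was 0.497, 0.497 and 0.515 in controls, 0.498, 0.515 and 0.557 with 1 floxed allele and 0.589, 0.621 and 0.635 with 2. The Dot1l(fl/fl) pools were above all others, with a log2 difference of 0.29 ± 0.04 from the controls (exact permutation p = 0.1). Ddc/Slc18a2 differed from controls by 0.29 ± 0.07 and overlapped with Dot1l(fl/+). The ratio of both synthesis enzymes, Th/Ddc, had a geometric mean of 0.970 in controls, 0.958 with 1 floxed allele and 0.780 with 2. Its Dot1l(fl/fl) pools overlapped with the controls (exact permutation p = 0.2) and lay below Dot1l(fl/+). Ddc is also expressed by serotonin neurons, whose gene Tph2 averaged 4.06 CPM in controls, 4.92 with 1 floxed allele and 2.54 with 2. The part of these cells in the ratio was not tested.

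The ratio Drd2/Slc10a4 followed another order. It was 0.900, 0.798 and 0.835 in controls, 1.13, 1.07 and 1.19 with 1 floxed allele and 0.966, 0.861 and 1.01 with 2. Dot1l(fl/+) was above both other genotypes, by 0.42 ± 0.07 on the log2 scale against controls, while Dot1l(fl/fl) and controls overlapped. Th/Slc10a4 was likewise highest in Dot1l(fl/+), at 5.72, 5.85 and 5.52, compared with 5.42, 4.67 and 4.84 in controls and 4.10, 3.56 and 3.81 in Dot1l(fl/fl). No pool overlapped between genotypes for this ratio.

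**Figure D4:**
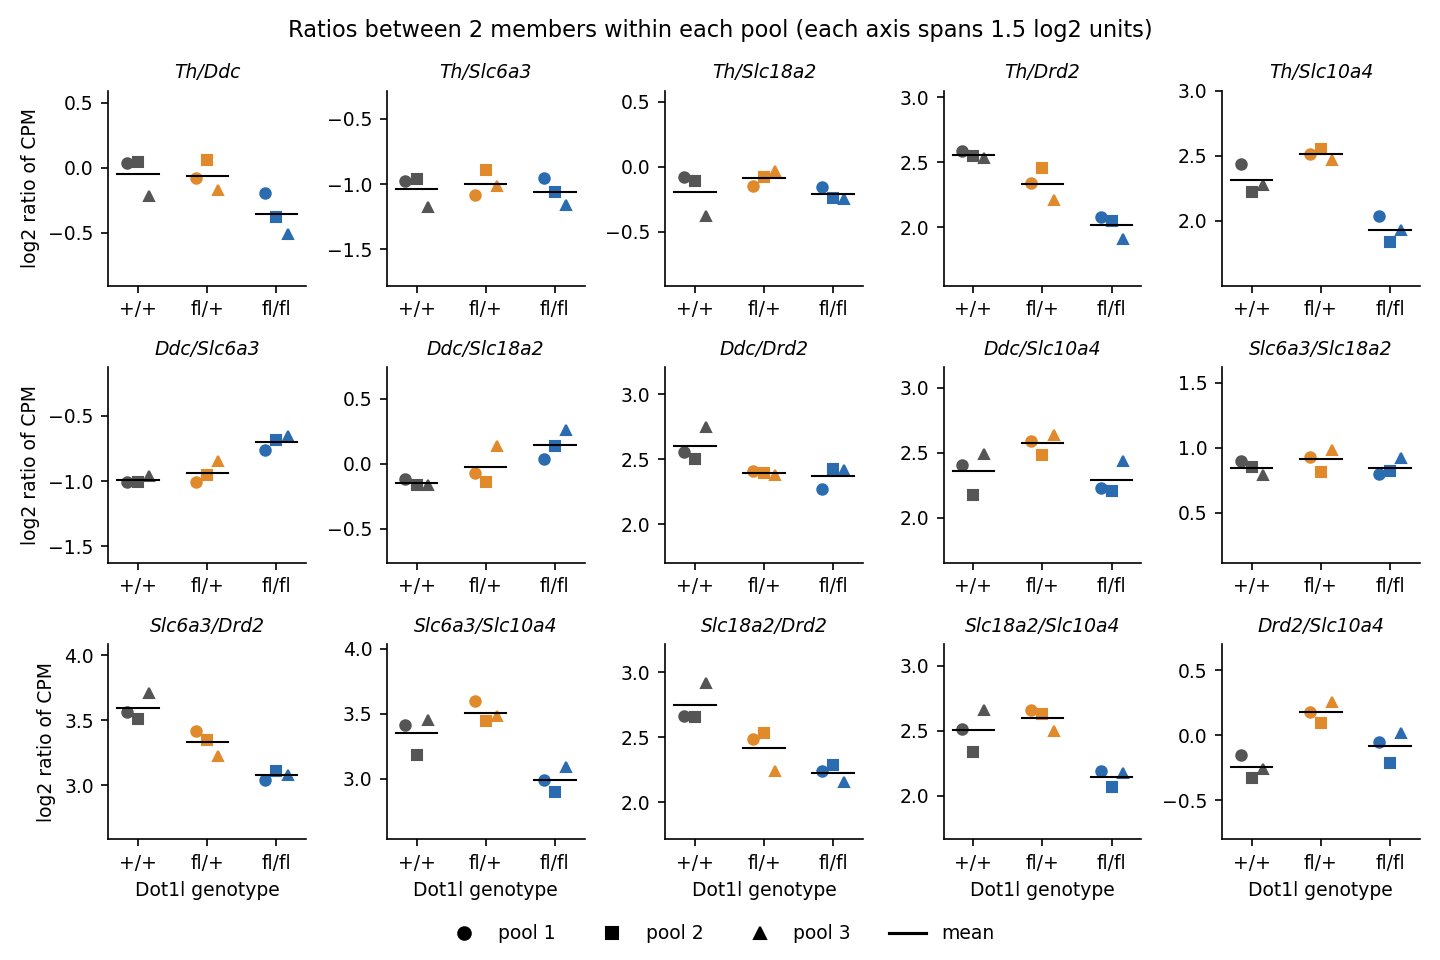
Log2 ratio of CPM between 2 members (vertical axes, each spanning 1.5 log2 units) in each pool of the 3 genotypes, with the mean as a line. Slc6a3/Slc18a2, Th/Slc6a3 and Th/Slc18a2 overlap between Dot1l(fl/fl) and controls, while the ratios of these genes to Drd2 are lower in Dot1l(fl/fl).

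The spread of the members among pools of a genotype was set beside that of their ratios. The SD of log2 CPM in Dot1l(fl/+) ran from 0.14 to 0.30 over the 6 members, while that of the 15 ratios ran from 0.017 to 0.16. In controls these SDs were 0.053 to 0.20 for the members and 0.028 to 0.17 for the ratios, and in Dot1l(fl/fl) 0.023 to 0.11 and 0.036 to 0.16, so the ratios were not tighter than the members there. The mean of the 6 members, each centred on its own mean over the 9 pools, was 0.35, 0.27 and 0.11 log2 units in controls, 0.09, 0.16 and -0.25 with 1 floxed allele and -0.25, -0.27 and -0.21 with 2. By this summed pattern, Dot1l(fl/+) pool 3 lay within the range of the Dot1l(fl/fl) pools, pool 2 within that of the controls and pool 1 just below the controls.

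The genes most like this mean pattern, by the root mean square of the difference in centred log2 CPM over the 9 pools, were sought among 13167 genes, whose median was 0.25 log2 units. The nearest were Ntn1 (0.109), Zc3h8 (0.114), Psmg3 (0.125), Aldh1a1 (0.130), Pcsk2os1 (0.133), Chrna6 (0.134), Rasgef1c (0.135), Ret (0.138), Ublcp1 (0.139) and Cpxm1 (0.139). Of these, Aldh1a1, Chrna6 and Ret belong to the list of other genes enriched in midbrain dopamine neurons. Of the members themselves, Ddc (0.073), Slc6a3 (0.092) and Slc18a2 (0.097) were nearer than any other gene, Th was at 0.121, and Drd2 (0.148) and Slc10a4 (0.154) were farther than all 10. The members entered the mean and so are nearer by construction.

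Of other genes of the pathway, no listed gene passed the adjusted threshold in edgeR in any of the 3 comparisons, and in Dot1l(fl/fl) against controls the adjusted p was 0.999 for each gene named here. All 10 transcription factors of dopamine neurons were lower in Dot1l(fl/fl) than in controls, 5 of them with an unadjusted p under 0.05 (against 1.72% of all genes lower), and their median log2 fold change was -0.23. Pitx3, a homeobox factor of midbrain dopamine neurons whose locus carries Cre in these mice, was at -1.45 ± 0.46 with a mean of 0.691 CPM in controls and 0.239 in Dot1l(fl/fl). Its values rested on only 2 to 21 counts a library. Foxa2 was at -0.59 ± 0.24, Lmx1b at -0.56 ± 0.16, En1 at -0.49 ± 0.18 and Sox6 at -0.24 ± 0.10. Nr4a2, which encodes Nurr1, a nuclear receptor that acts on Th and Slc6a3, was at -0.11 ± 0.10. Against Dot1l(fl/+), 5 factors were lower in Dot1l(fl/fl) with an unadjusted p under 0.05, against 2.87% of all genes. They were Pitx3 (-1.085 ± 0.467), Lmx1a (-0.64 ± 0.28), Lmx1b (-0.60 ± 0.16), Otx2 (-0.34 ± 0.13) and Sox6 (-0.22 ± 0.10). Of these, Lmx1a and Otx2 were at 0.42 ± 0.27 and 0.27 ± 0.13 in Dot1l(fl/+) against controls. In Dot1l(fl/fl) against controls they were at -0.22 ± 0.29 and -0.07 ± 0.13. Against controls, 7 of the 10 factors were lower in Dot1l(fl/+), none with an unadjusted p under 0.05.

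The 18 other genes enriched in midbrain dopamine neurons were divided in Dot1l(fl/fl), with 11 lower and 7 higher than controls and a median of -0.06. Of these, 5 were lower and 2 higher with an unadjusted p under 0.05, against 1.72% of all genes lower and 2.21% higher. The lower ones were Gucy2c, a receptor guanylyl cyclase, at -0.69 ± 0.27, Chrna6, a nicotinic receptor subunit, at -0.36 ± 0.11, Ntsr1, a neurotensin receptor, at -0.34 ± 0.11, Ret, the GDNF receptor kinase, at -0.24 ± 0.07, and Aldh1a1, a retinaldehyde dehydrogenase of ventral nigral neurons, at -0.22 ± 0.07. Of the higher ones, the neuropeptide gene Cck was at 0.24 ± 0.10. Chrna6, Chrnb3 and Ret were lower in Dot1l(fl/+) with an unadjusted p under 0.05 (against 4.09% of all genes), at -0.35 ± 0.11, -0.27 ± 0.10 and -0.17 ± 0.07. Sncg was at 0.25 ± 0.09 in Dot1l(fl/fl) against Dot1l(fl/+).

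For the cofactor tetrahydrobiopterin, which tyrosine hydroxylase requires, 5 of 6 genes were tested. Gch1, the first enzyme of its synthesis, was at -0.40 ± 0.14 in Dot1l(fl/fl), with 6.28 ± 0.443 CPM in controls and 4.72 ± 0.584 in Dot1l(fl/fl). The other 4 tested were between 0.02 and 0.13, and the list's median was 0.05. Spr and Qdpr, which act later in the synthesis and in recycling, were at 0.25 ± 0.10 and 0.17 ± 0.07 in Dot1l(fl/+). The 4 genes of dopamine breakdown lay between -0.10 and 0.09 in Dot1l(fl/fl), with a median of 0.0079. Of these, the aldehyde dehydrogenase gene Aldh2 was at 0.14 ± 0.06 in Dot1l(fl/+) and at -0.16 ± 0.06 in Dot1l(fl/fl) against Dot1l(fl/+).

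Of the other dopamine receptors 3 of 4 were tested, all 3 with a positive log2 fold change in Dot1l(fl/fl) and a median of 0.09. Drd3 was at 1.13 ± 0.45 against Dot1l(fl/+), at a mean of only 0.238 CPM there and 0.534 in Dot1l(fl/fl). None of the 5 other amine transporters tested had an unadjusted p under 0.05. In Dot1l(fl/fl) 4 of them were lower than controls and 1 higher, with a median of -0.26. The 2 with the largest log2 fold change in Dot1l(fl/fl) were Slc18a3, the vesicular acetylcholine transporter, at -0.84 ± 0.79 and Slc6a4, the serotonin transporter, at -0.65 ± 0.92.

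The 10 regulators and partners of tyrosine hydroxylase and the dopamine transporter had a median of 0.10 in Dot1l(fl/fl), with 9 higher and 1 lower. Camk2a was at 0.28 ± 0.09 and Prkaca, a catalytic subunit of protein kinase A, at 0.12 ± 0.05. All 10 were higher in Dot1l(fl/+), among them Sncb at 0.22 ± 0.08, Prkaca at 0.16 ± 0.05 and Syngr3 at 0.14 ± 0.05 with an unadjusted p under 0.05, against 4.3% of all genes in that direction. The 8 signalling partners of the D2 autoreceptor had a median of 0.03 in Dot1l(fl/fl). The arrestin gene Arrb2 was at 0.21 ± 0.08 in Dot1l(fl/fl) and at 0.21 ± 0.08 in Dot1l(fl/+), and the inhibitory G protein gene Gnai2 at 0.14 ± 0.05 in Dot1l(fl/+). Most genes of these lists are also expressed by neurons and glia without Cre.

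**Figure D5:**
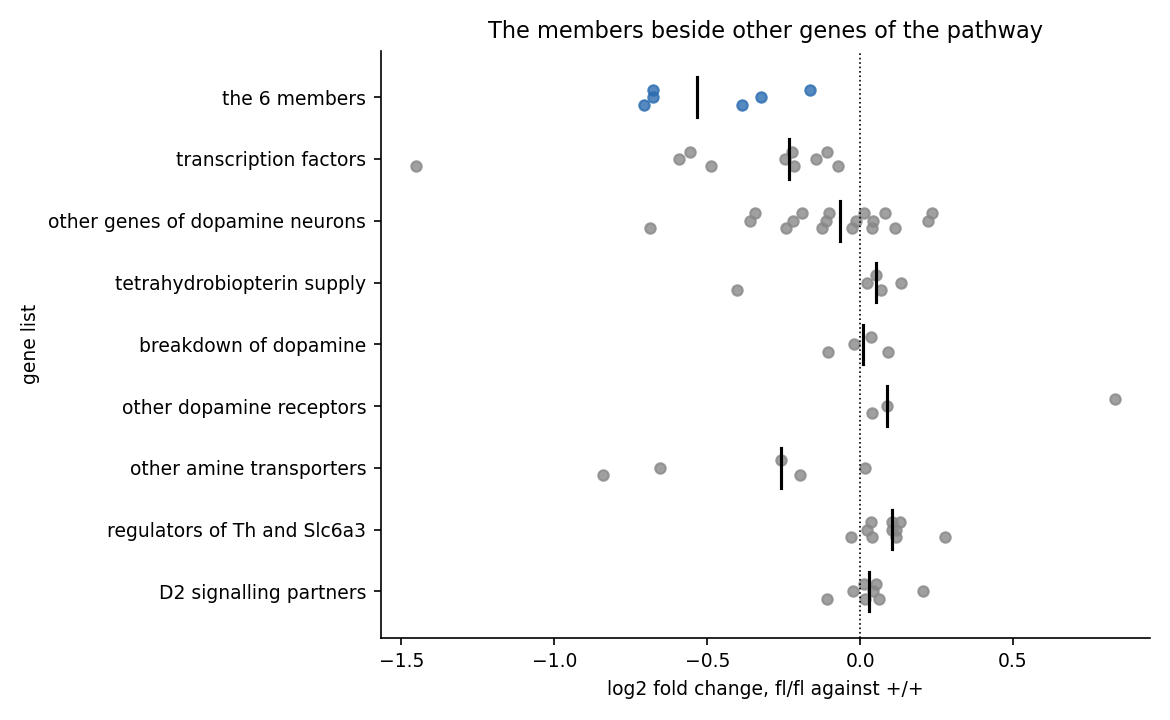
Log2 fold change of Dot1l(fl/fl) against Dot1l(+/+) (horizontal axis) for the 6 members and for the tested genes of 8 other lists of the dopamine pathway (rows), with a bar at the median of each. The median is -0.53 for the members, -0.26 for the other amine transporters, -0.23 for the transcription factors and between -0.06 and 0.10 for the other lists.

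Markers of other cells were compared in the same fit. Between Dot1l(fl/fl) and controls the median log2 fold change was -0.03 for 6 oligodendrocyte genes, 0.04 for 6 astrocyte genes, -0.00086 for 5 endothelial genes, -0.01 for 5 genes of GABA neurons, 0.09 for 2 genes of glutamate neurons, -0.05 for 5 cholinergic genes and 0.15 for 6 microglia genes. No marker was called by edgeR. The summed microglia markers were 205.8 to 218.4 CPM in controls and 230.5 to 247.8 in Dot1l(fl/fl), without overlap. The microglia genes Aif1 (0.42 ± 0.17) and Csf1r (0.15 ± 0.06) were higher with an unadjusted p under 0.05, against 2.21% of all genes. So was the cholinergic gene Prph (0.43 ± 0.19). The part of these cells in the values of the members was not tested. The serotonin markers had a median of -0.35 over the 4 tested genes, with Tph2 at -0.65 ± 0.61, and the hypothalamic markers had a median of -0.56 over the 3 tested.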

How the data were processed

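RNA of 9 pools of dissected midbrain was sequenced from directional libraries on an Illumina NextSeq. Per the labels, the authors used bcl2fastq 2.17, Trimmomatic 0.30, GRCm38.p4 and DESeq2 1.10.1. The aligner, the counting tool and its strand setting are not given in the sources used here. The authors deposited raw counts per Ensembl gene, 1 file a library, together with their own DESeq2 comparisons (mean, fold change, p-value), which were not used.

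Of 47729 identifiers, 47310 had a gene in GENCODE M21, with 99.945% of counts. The test was the quasi-likelihood test of edgeR 4.0.16 (R 4.3.3) fitted to genotype alone over all 9 libraries, with filterByExpr, TMM and Benjamini-Hochberg adjustment over 17671 genes, at a threshold of 0.05. TMM factors lay between 0.988 and 1.01, and the spread between pools beyond counting (common BCV) was 8.81%. Standard errors are those of log2 fold changes unless SD is written, and intervals cover 95%. Ratios were taken between CPM of 2 members in a pool and compared by an exact two-sided permutation test (scipy 1.17.1). DESeq2 1.42.0, other scalings, filters and offsets, the replicate number as a block, and each library left out were alternatives. A fit without 2 pools with hypothalamic markers was chosen after seeing the data. The edgeR steps were tested on simulated data.

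The members and the gene lists were chosen with earlier results of these data known. Named are the 6 members, Dot1l, the list genes with an unadjusted p under 0.05 in any comparison (or the 2 with the largest change), and the 10 genes nearest to the members' mean pattern. Of these, 1 list gene is in the counts and is not reported here by name. Nr4a2 and the markers were named after their values were seen. Promoter sequences are from RefSeq (GRCm38.p6), where all 6 members were matched. The pools of a genotype were treated as separate samples of pooled mice. The study's methods describe matched littermate sets, which the main fit does not model. Its p-values therefore measure the spread between pools, with any spread between such sets included. Precision is limited by 3 pools a genotype and by depth (16422135 to 28403218 counts a library).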

Additional observations from a re-analysis of the deposited data

How the results depend on the processing

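The log2 fold changes of the members kept their sign under the alternatives except as given here. In Dot1l(fl/fl) against Dot1l(+/+), where edgeR called 0 members, 3 were called by DESeq2 on all 9 libraries (with 0.0106% of all genes called), by edgeR on the 2 genotypes alone (0.0231%) and without both pools with hypothalamic markers (0.0218%, chosen after seeing the data), and 4 by edgeR with no filter (0.417%) and by DESeq2 on the 2 genotypes alone (0.0802%). Leaving out 1 library gave 0 to 3, with 0.0% to 0.0224% of all genes called. In Dot1l(fl/fl) against Dot1l(fl/+) the count moved from 0 to 1 with DESeq2 on all 9 libraries (Slc6a3, 0.0554% of all genes) or on the 2 genotypes (Th, 0.0292%), to 3 with no filter (0.579%) and to 3 without both pools (1.03%, where Dot1l(fl/+) was 1 library, assumed to vary like the pools of the other genotypes), and lay between 0 and 2 without 1 library (0.0% to 0.0671%). In Dot1l(fl/+) against Dot1l(+/+) it moved from 0 to 2 with no filter (0.886%) and stayed at 0 without any 1 library. DESeq2's size factors, 10 counts in every library, and the length and GC offset left every count at 0. The reason for these shifts in calls was not tested. Members whose pools did not overlap numbered 2 to 5 between Dot1l(fl/fl) and Dot1l(fl/+) without 1 library, against 8.47% to 12.4% of all genes (8.47% where 5 did not overlap, without Dot1l(fl/+) pool 3).

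Signs turned for small values. Drd2 in Dot1l(fl/+) lay between -0.10 and 0.072 without 1 library and at 0.092 without both pools, and Slc10a4 in Dot1l(fl/fl) against Dot1l(fl/+) between -0.015 and 0.19 and at -0.075. The difference between both allele steps lay between -0.14 and 0.13 for Ddc (-0.0049 with the length and GC offset, -0.0018 with the replicate block and that offset, -0.16 without both pools) and between -0.36 and 0.17 for Slc18a2.

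With the replicate number as a block, edgeR called 3 members in Dot1l(fl/fl) against Dot1l(+/+), with or without the length and GC offset (0.017% of all genes), and 0 in the other comparisons. Deviations of pools with the same number correlated at 0.022 to 0.32, those with different numbers at -0.27 to 0.11, and a pool's best match in another genotype had its own number in 15 of 18 cases. The study's methods speak of matched sets. The numbers were not taken as pairs because no label ties a number to such a set and not every same-number correlation was over 0.1.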
